A study of Mus musculus with 6 samples.

Results

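The collagen genes are the rows of the gene tables whose name reads Col, a number, a and a number, the symbols given to the chains of the collagens. There are 44 of them among 55401 gene identifiers. By the structures their proteins build, 11 are fibrillar, 8 belong to basement membranes and 25 are other collagens. The names chose them, and no measured value did.

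The libraries came from lymphatic endothelial cells (LECs) sorted from the dura mater, the outermost of the meninges, of wild-type C57BL/6J male mice. At 4 weeks of age the mice received an adeno-associated virus of serotype 9 through the cisterna magna. AAV-VEGF-C encoded full-length mouse VEGF-C, the growth factor that drives lymphatic growth through VEGFR3, and AAV-CTRL encoded soluble immunoglobulin domains of VEGFR3 that do not bind VEGF-C, so that control mice also carried a virus and its protein. Each group has 3 libraries, numbered by the repeat of the experiment, and each library pooled the meninges of 10 to 12 mice, so that the spread is between pools and not between animals. The dura was digested with collagenase D and DNase, and the sorted cells were CD31+ Podoplanin+ LYVE-1+ CD45-. The comparison asks which genes differ in dural LECs after VEGF-C.

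Collagens are secreted as chains wound around each other into a helix, which needs hydroxylated prolines and lysines, and which is trimmed and cross-linked outside the cell. Fibrillar collagens give the dura its strength and come mainly from fibroblasts. Type IV collagen forms the sheet under endothelium, although lymphatic capillaries are known for a thin and interrupted basement membrane, and other collagens coat fibrils, make beaded filaments around cells or span membranes.

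The AAV-CTRL libraries held 6530269, 7858091 and 12399498 counts and the AAV-VEGF-C libraries 564475, 1435008 and 3261935, so the treated libraries were the shallower ones. Genes of the odorant, vomeronasal and taste receptor, keratin-associated and defensin families, which endothelium is taken not to use (1653 genes), made up 136 to 263 of each 1000000 counts in the controls and 2752 to 6872 with VEGF-C. This level, taken here as the background of a library, touches the low collagens and is given beside them. LEC markers were present in every library, with Prox1, the master regulator of lymphatic identity, at 6.44 to 14.1 TPM in AAV-CTRL and 3.15 to 9.62 TPM in AAV-VEGF-C. Fibroblast markers were present too. Fmod, a proteoglycan that binds collagen fibrils, stood at 122 to 322 TPM in AAV-CTRL and 21.7 to 91.0 TPM in AAV-VEGF-C, and of the 10 fibroblast markers only Dpt was at 0 in any library.

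Abundant collagens had mostly negative and low collagens mostly positive fold changes in AAV-VEGF-C, and so did most genes of like level. TPM values correct for gene length and library total, so they can be compared between genes, and the mean over the 6 libraries was at least 5 TPM for 19 collagens. Of these 19, 18 had a negative log2 fold change (AAV-VEGF-C against AAV-CTRL, edgeR) with a median of -0.83, against 76.0% negative and a median of -0.41 among 7234 genes of at least 5 TPM. Of the 22 tested collagens under 5 TPM, 18 had a positive fold change with a median of 1.16, against 68.0% and 0.52 among 10225 such genes.

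No collagen fell at an adjusted p under 0.05 in edgeR's quasi-likelihood test, where 0.659% of the 17459 tested genes did. At an unadjusted p under 0.05, 6 of the 41 tested collagens were lower, beside 9.11% of all tested genes. DESeq2 called 4 lower (1.13% of all genes it tested) and limma on log2(TPM + 1) called 1 (2.49%). With the replicate number as a block, edgeR called 1 lower (2.07%). The same edgeR fit called 5 of the 41 higher, which is 12.2%, beside 10.5% of all tested genes. This is a share near that of genes at large. All 5 (Col2a1, Col4a4, Col17a1, Col22a1 and Col26a1) were under 5 TPM on average, so that they are 5 of 22 low members, beside 16.8% of the low genes at large.

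**Figure D1:**
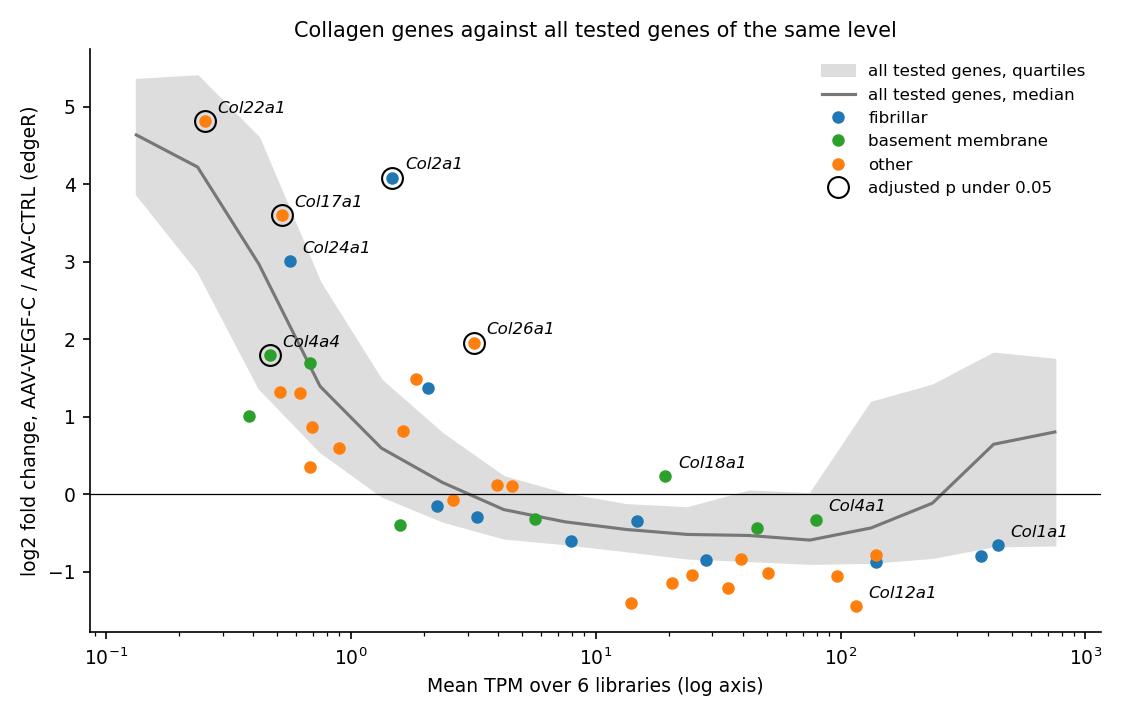
The log2 fold change (AAV-VEGF-C / AAV-CTRL, edgeR) of the 41 tested collagen genes is plotted against their mean TPM (log axis), with the median and quartiles of all tested genes in bins of level in grey and circles around the 5 genes with an adjusted p under 0.05. Counted by bin, 13 of the 22 low collagens on the left lie between the quartiles, 5 above and 4 below. Abundant ones lie in or below the band on the right, except Col18a1.

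Set against genes of the same level, in bins of mean TPM, 9 of the 19 abundant collagens had a fold change below the lower quartile of their bin, 9 lay between the quartiles and 1, Col18a1, lay above the upper quartile. None of the 9 below it was a basement membrane collagen. Of the 22 low ones, 4 lay below, 13 between and 5 above the quartiles, and these 5 were Col2a1, Col26a1, Col24a1, Col7a1 and Col11a2.

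Collagens took 3.30%, 1.52% and 2.12% of all counts in control libraries 1 to 3, with 95% Wilson intervals of 3.28 to 3.31, 1.51 to 1.52 and 2.11 to 2.13. With VEGF-C the shares were 1.05% (1.02 to 1.07), 0.955% (0.939 to 0.971) and 1.69% (1.68 to 1.70). The groups overlap in this share, since AAV-VEGF-C 3 is above AAV-CTRL 2, and the intervals cover counting error only. In TPM, which is the scale on which genes of unlike length can be added, the collagens summed to 3248, 1671 and 2948 in AAV-CTRL and to 485, 677 and 1324 in AAV-VEGF-C. Every treated library is below every control on that scale, and the ratio of the means was 0.316. Within the repeats of the experiment the ratio was 0.149, 0.405 and 0.449.

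Fibrillar collagens made up most of the collagen TPM in both groups. Fibrillar collagens took 58.0% ± 4.37 (SD, n = 3) of collagen TPM in the controls and 59.5% ± 4.81 with VEGF-C. Basement membrane collagens took 8.88% ± 3.43 and 10.6% ± 4.12, and the other collagens 33.1% ± 0.959 and 29.9% ± 0.784. Col1a1 and Col1a2 ranked first and second among the collagens in every library and together gave 46.4% ± 6.27 of collagen TPM in the controls and 47.8% ± 4.67 with VEGF-C. These differences in share are within the spread of the libraries for the fibrillar and basement membrane classes. For the other collagens the groups do not overlap, at 32.4, 32.9 and 34.2% against 30.8, 29.4 and 29.4%.

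Markers of several cell types were also lower in TPM. The 10 fibroblast markers summed to 854, 418 and 977 TPM in AAV-CTRL and to 69.8, 126 and 266 TPM in AAV-VEGF-C, a ratio of means of 0.205, and 9 of the 10 were below all controls in each VEGF-C library. All 8 fibroblast markers of at least 5 TPM were among these 9, beside 61.4% of all genes of that level. The 8 LEC markers summed to 586, 453 and 452 TPM and to 370, 202 and 155 TPM, a ratio of 0.487, with none passing the test. Ccl21a was the largest part of this sum in every library, at 352, 264 and 247 TPM and at 211, 94.3 and 82.1 TPM. After TMM scaling, the scale of the fold changes, the LEC markers did not go the way of the abundant collagens. Their median fold change was 0.39, with 2 of 8 negative, and their summed CPM of 2548, 1606 and 1237 overlapped with 5372, 1528 and 815 in AAV-VEGF-C. The summed CPM of all collagens overlapped on that scale too, at 34552, 15155 and 17775 against 13654, 9825 and 15854. So did the fibrillar and basement membrane sums, while the sums of the other collagens did not overlap. The 9 tested fibroblast markers were all negative on that scale, with a median of -1.39. Of these, Dcn (-1.69, adjusted p = 0.0287, edgeR) and Ogn (-1.85, adjusted p = 0.0313) passed the test as lower, beside 0.659% of all tested genes. In TPM the median log2 difference of all genes of at least 5 TPM was itself -1.31 (limma). Among the other lists, mural markers had a TPM ratio of 0.268, pan-endothelial markers 0.246, chondrocyte markers 0.246, osteoblast markers 0.353, tendon markers 0.262, arachnoid markers 0.346, blood endothelial markers 0.222 and macrophage markers 0.490. The groups overlapped in summed TPM for the chondrocyte, osteoblast, blood endothelial and macrophage markers. The macrophage sums were 14.6, 903 and 537 TPM against 9.50, 451 and 253 TPM, with a median fold change of -0.16. Epithelial and Schwann cell markers were low in both groups, with summed TPM of at most 10.7 in any library and ratios of 0.957 and 1.10. In these other lists Tnmd (tendon) was called lower (adjusted p = 0.0399, edgeR). Dmp1 (osteoblast, 0.0193) and Sox10 (Schwann, 0.0328) were called higher, beside 10.5% of all tested genes, and both averaged under 5 TPM. No list summed to 0 in any library. Fewer cells of a type and less RNA per cell cannot be told apart in such bulk libraries. The part of fibroblasts and of the other cell types in the collagen values was not tested.

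**Figure D2:**
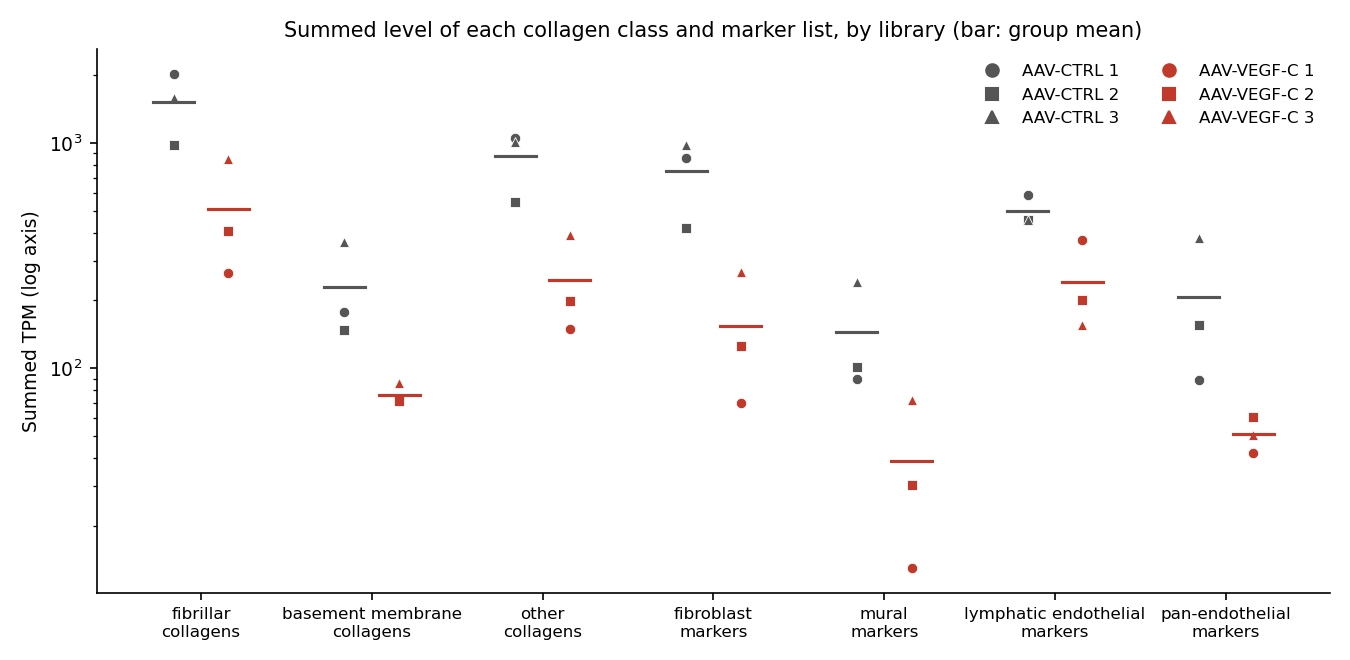
Summed TPM (log axis) of each collagen class and of 4 marker lists is shown for each library, AAV-CTRL in grey and AAV-VEGF-C in red, with a bar at each group mean. In every class and list shown, each AAV-VEGF-C library lies below each AAV-CTRL library in TPM. After TMM scaling only the sums of the other collagens and of the fibroblast markers stay apart, and the remaining sums overlap.

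Relative to the fibroblast markers of the same library, collagens were higher in AAV-VEGF-C, but this is not particular to collagens. Among members of at least 5 TPM, the median log2 difference in TPM (limma) was -2.25 for fibroblast markers and -1.77 for collagens. It was -1.31 for all genes of that level, so genes at large also rose relative to these markers. The ratio of collagen TPM to fibroblast marker TPM was 3.80, 3.99 and 3.02 in the controls and 6.95, 5.38 and 4.97 with VEGF-C. The groups do not overlap in it, nor in the same ratio for the fibrillar class (2.37, 2.33 and 1.61 against 3.79, 3.23 and 3.19) or the other collagens (1.23, 1.31 and 1.03 against 2.14, 1.58 and 1.46). For the basement membrane class the ratios were 0.207, 0.354 and 0.372 against 1.02, 0.568 and 0.324, which overlap. Relative to the LEC markers, collagen TPM was 5.54, 3.69 and 6.51 against 1.31, 3.36 and 8.52, with AAV-VEGF-C 3 above and AAV-VEGF-C 1 and 2 below all controls. The LEC sum in this ratio was led by Ccl21a.

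Among the fibrillar collagens, all 6 with at least 5 TPM were below all controls in each VEGF-C library in TPM and none passed the test. Non-overlap of this kind and direction was found for 61.4% of the 7234 genes of at least 5 TPM. Col1a1 on chr11:94936224-94953042, which codes for the main chain of type I collagen of bone, tendon and dura, stood at 910, 433 and 616 TPM in AAV-CTRL 1 to 3 and at 109, 178 and 391 TPM in AAV-VEGF-C 1 to 3. Its partner chain Col1a2 stood at 790, 353 and 558 TPM and at 106, 134 and 312 TPM. The fold changes were -0.65 (SE 0.58, adjusted p = 0.506, edgeR) for Col1a1 and -0.79 (SE 0.56, adjusted p = 0.398) for Col1a2. After TMM scaling, which sets the libraries level on the bulk of their genes, AAV-VEGF-C 3 held 5459 Col1a1 CPM (counts scaled to a common library total), above AAV-CTRL 2 at 4544 and AAV-CTRL 3 at 4405, so the groups overlap on that scale.

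Type III collagen, encoded by Col3a1, mixes with type I in elastic tissues and vessel walls. Col3a1 stood at 228, 132 and 296 TPM in the controls and at 27.7, 59.9 and 90.8 TPM with VEGF-C. It was the only fibrillar member that was also below all controls in each VEGF-C library after TMM scaling, with 1727, 897 and 1354 scaled CPM against 686, 591 and 893, and its fold change was -0.87 (SE 0.39, adjusted p = 0.187, edgeR). Type V chains start type I fibrils and limit their width. Col5a2, which lies next to Col3a1 on chromosome 1 in the opposite direction, stood at 49.0, 25.4 and 53.1 TPM and at 6.49, 13.7 and 21.1 TPM. Col5a1 stood at 20.5, 13.9 and 30.2 TPM and at 3.61, 10.3 and 10.0 TPM. Col11a1, whose product does the same in cartilage fibrils, stood at 11.6, 8.89 and 11.5 TPM and at 4.93, 2.99 and 7.59 TPM. The controls are higher in each case, and the fold changes of -0.85, -0.34 and -0.60 had adjusted p of 0.186, 0.539 and 0.357.

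**Figure D3:**
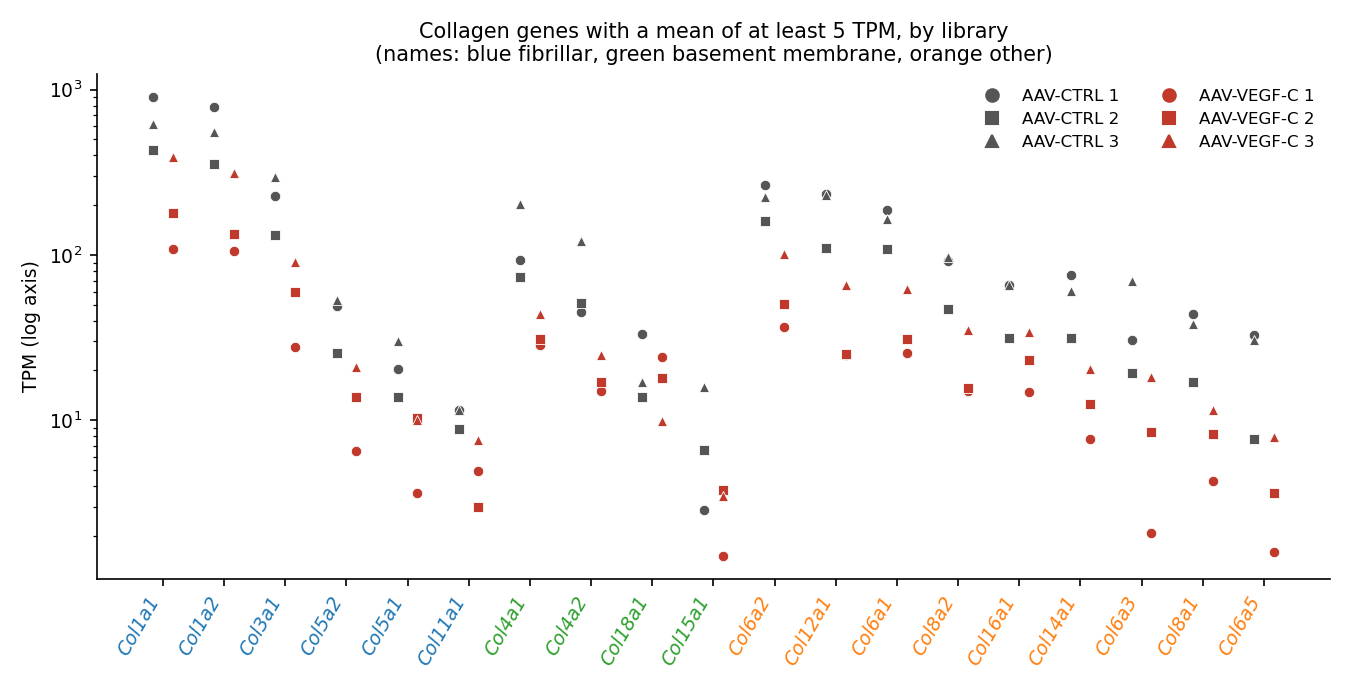
TPM (log axis) of the 19 collagen genes that average 5 TPM or more is shown for each library, AAV-CTRL in grey and AAV-VEGF-C in red, with gene names in blue for fibrillar, green for basement membrane and orange for other collagens. In 15 of the 19 all AAV-VEGF-C points lie below all AAV-CTRL points, and Col18a1, Col15a1, Col16a1 and Col6a5 are the 4 that overlap.

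The basement membrane collagens were led by Col4a1 and Col4a2, the chains of the type IV network found under nearly all endothelium. Col4a1 stood at 93.6, 73.6 and 205 TPM in the controls and at 28.7, 31.0 and 43.9 TPM with VEGF-C. Col4a2 stood at 44.9, 51.5 and 121 TPM and at 15.1, 16.9 and 24.7 TPM. The control of number 3 is the high one for both chains. That library also had the highest control sum of pan-endothelial markers (379 TPM, against 88.3 and 155 in the other controls). The same held for every other marker list except the LEC, chondrocyte and macrophage markers. Their fold changes of -0.33 (SE 0.39, adjusted p = 0.628, edgeR) and -0.44 (SE 0.33, adjusted p = 0.429) are within the spread, and they turn to 0.16 and 0.046 when libraries are scaled on the 2000 most abundant genes. The ratio of basement membrane collagen TPM to pan-endothelial marker TPM was 1.31 ± 0.606 (SD, n = 3) in the controls and 1.53 ± 0.303 with VEGF-C, and the groups overlap.

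Col4a1 and Col4a2 lie head to head on chromosome 8, and their RefSeq gene models (GRCm38.p6) share 22 bases at their starts. These bases, chr8:11312805-11312826 on the plus strand, are shown because both transcripts begin in them, in opposite directions. Capitals mark the letters GGGCGG, a GC box.
Col4a1 and Col4a2 starts: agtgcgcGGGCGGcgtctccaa
Col4a3 and Col4a4 lie in the same way with a gap of 71 bases, and Col4a5 and Col4a6 with a gap of 1308 bases on chromosome X.

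Col18a1 and Col15a1 encode the basement membrane zone collagens whose ends are released as endostatin and a related fragment. Col18a1 stood at 33.1, 13.7 and 17.1 TPM in the controls and at 24.1, 17.9 and 9.89 TPM with VEGF-C. It was the one abundant collagen with a positive fold change, 0.23 (SE 0.56, adjusted p = 0.832, edgeR), and the libraries of the groups interleave. Its direction rests on single libraries, since the value was -0.55 without AAV-VEGF-C 1 and -0.16 without AAV-CTRL 3. Col15a1 stood at 2.84, 6.56 and 15.9 TPM and at 1.51, 3.77 and 3.50 TPM, with a fold change of -0.32 (SE 0.42, adjusted p = 0.669), and its groups overlap too. AAV-CTRL 3 is the high library here, as for the type IV chains.

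The type VI collagens build beaded filaments that hold cells to the matrix, and their 3 main chains are Col6a1, Col6a2 and Col6a3. Col6a1 stood at 187, 109 and 165 TPM in the controls and at 25.5, 30.9 and 62.0 TPM with VEGF-C. Col6a2, its neighbour on chromosome 10, stood at 266, 160 and 223 TPM and at 36.6, 50.6 and 101 TPM. Both were below all controls in each VEGF-C library on the TPM scale and after TMM scaling, with fold changes of -1.05 (SE 0.41, adjusted p = 0.145, edgeR) and -0.79 (SE 0.43, adjusted p = 0.278). Col6a3, the long chain of the filament, stood at 30.4, 19.3 and 69.4 TPM and at 2.07, 8.51 and 18.4 TPM, with a fold change of -1.03 (SE 0.46, adjusted p = 0.192). Col6a5, a chain that can stand in for Col6a3, stood at 32.7, 7.74 and 30.4 TPM and at 1.58, 3.63 and 7.87 TPM, with a fold change of -1.40 (SE 0.52, adjusted p = 0.131). AAV-CTRL 2 is low for Col6a5 and lies within the treated range, and its estimated counts are fractional, so that reads may be shared with another gene and the value is uncertain.

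Collagens that sit on the surface of fibrils, the FACIT group, held the largest negative fold change among collagens of at least 5 TPM. Col12a1 on chr9:79598991-79718831, which binds type I fibrils in tissues under tension, stood at 235, 110 and 231 TPM in the controls and at 24.7, 25.3 and 66.2 TPM with VEGF-C. After TMM scaling it held 3721, 1564 and 2494 CPM against 945, 711 and 1215. No treated library reaches the lowest control on either scale. The fold change of -1.44 (SE 0.47) missed the threshold in edgeR at an adjusted p of 0.0922, and passed it with the replicate number as a block (adjusted p = 0.0475, fold change -1.38). It ranged from -1.75 to -1.13 when single libraries were left out, with adjusted p from 0.0854 to 0.167.

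Col14a1, another collagen of fibril surfaces, stood at 75.4, 31.4 and 60.7 TPM in the controls and at 7.74, 12.5 and 20.5 TPM with VEGF-C. Its fold change was -1.21 (SE 0.41, adjusted p = 0.101, edgeR). Col16a1, which lies at the margin of fibrils and beaded filaments, stood at 65.8, 31.2 and 65.7 TPM and at 14.8, 23.2 and 34.1 TPM, with a fold change of -0.83 (SE 0.42, adjusted p = 0.241). AAV-VEGF-C 3 exceeds AAV-CTRL 2 for Col16a1, while no library overlaps for Col14a1. The short-chain collagens Col8a1 and Col8a2 form networks in vessel walls and under the corneal endothelium. Col8a1 stood at 43.8, 17.0 and 38.3 TPM and at 4.28, 8.23 and 11.5 TPM, and Col8a2 at 91.7, 47.1 and 97.5 TPM and at 15.0, 15.7 and 35.0 TPM. Their groups do not overlap on either scale, and the fold changes were -1.14 (SE 0.41, adjusted p = 0.12) and -1.01 (SE 0.41, adjusted p = 0.155).

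Over all 19 abundant members, 15 were below all controls in each VEGF-C library in TPM, beside the 61.4% of genes of that level. After TMM scaling 7 of the 19 were (Col3a1, Col6a1, Col6a2, Col8a1, Col8a2, Col12a1 and Col14a1), beside 33.2%. Within the repeats of the experiment all 19 were lower in TPM for number 1, 18 for number 2 (all but Col18a1) and all 19 for number 3. After TMM scaling 16 of 19 were lower within each number, and the exceptions differed between the numbers. They were Col15a1, Col18a1 and Col4a1 for number 1, Col18a1, Col5a1 and Col6a5 for number 2, and Col11a1, Col1a1 and Col1a2 for number 3. The share of all genes lower within a number was not computed, so these counts cannot be read as particular to collagens. In the main fit 76.0% of all genes of at least 5 TPM had a negative fold change. Adjusted p over the 19 ran from 0.0922 to 0.832.

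Promoter sequence was read for the 3 of those 7 members whose RefSeq and GENCODE starts coincide or differ by a base, to show the sequence ahead of genes that were low in the same libraries. Each line gives the 150 bases before the RefSeq start (GRCm38.p6), in the direction of the gene, at chr1:45311388-45311537 on the plus strand, chr4:126286644-126286793 on the plus strand and chr16:57754738-57754887 on the minus strand. Capitals mark matches on either strand to a CCAAT box, searched by those letters. They also mark the GC box GGGCGG, whose matches may overlap each other. The TATA box was searched as TATAAA.
Col3a1: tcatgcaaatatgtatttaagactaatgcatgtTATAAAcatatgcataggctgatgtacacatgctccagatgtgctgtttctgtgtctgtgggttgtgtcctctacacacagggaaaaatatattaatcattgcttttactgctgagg
Col8a2: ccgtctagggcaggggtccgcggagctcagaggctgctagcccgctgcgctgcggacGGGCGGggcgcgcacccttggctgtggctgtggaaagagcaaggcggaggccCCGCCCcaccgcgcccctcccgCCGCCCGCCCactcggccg
Col8a1: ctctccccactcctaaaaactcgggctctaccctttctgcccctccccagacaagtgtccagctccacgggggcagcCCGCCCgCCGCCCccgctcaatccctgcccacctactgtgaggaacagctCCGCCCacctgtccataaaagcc
The stretch before Col3a1 is 37.3% G and C, with a TATAAA and no GC box, while those before Col8a2 (78.0%) and Col8a1 (64.7%) hold several GC boxes. In windows of 250 bases before to 50 after the start, which RefSeq gives for 35 of the 44 genes as 38 windows, GGGCGG was found in 23 (60.5%), CCAAT in 13 (34.2%) and TATAAA in 5 (13.2%). Over all 32851 windows of the table the shares were 35.7, 37.4 and 13.6%. A match is a run of letters, not a bound site.

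Chains that assemble into one molecule were compared by the ratio of their TPM in each library, which no scaling between libraries can move. The log2 ratio of Col1a1 to Col1a2 was 0.20, 0.30 and 0.14 in the controls and 0.043, 0.42 and 0.32 with VEGF-C, a difference of 0.047 (two-sided exact permutation p = 0.7, adjusted over 3 ratios 0.7). That of Col4a1 to Col4a2 was 1.06, 0.52 and 0.76 and 0.93, 0.87 and 0.83, a difference of 0.097 (exact permutation p = 0.7, adjusted 0.7). That of Col6a1 to Col6a2 was -0.51, -0.55 and -0.44 and -0.52, -0.71 and -0.70, a difference of -0.15 (exact permutation p = 0.2, adjusted 0.6). Within the replicate numbers the Col6a1 to Col6a2 differences were -0.0088, -0.16 and -0.26, all of one sign (exact sign-flip permutation p = 0.25, the smallest that 3 pairs allow). For every pair of chains the groups overlap, and 3 libraries against 3 cannot give a p below 0.1. The mean TPM of each of these 6 chains in AAV-VEGF-C was 0.257 to 0.346 of the mean in AAV-CTRL.

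The 5 collagens called higher are genes of cartilage, epithelium and other tissues, all under 5 TPM on average here. All but Col26a1 were close to the background in some treated library. The background of a library was taken as the count density over the 1653 genes of the unexpressed families, times the length of the gene. Col2a1, the type II collagen of cartilage on chr15:97975602-98004695, had 12, 13 and 17 counts in the controls and 9, 13 and 163 with VEGF-C. Its fold change was 4.08 (SE 0.65, adjusted p = 0.0193, edgeR), and its summed counts were 7.07 times the background in the controls and 8.07 times with VEGF-C. The 163 counts of AAV-VEGF-C 3 make up most of the treated total, and AAV-VEGF-C 1 and 2 stood at 1.82 and 1.98 times their background. Chondrocyte markers summed to 167, 49.6 and 146 TPM in AAV-CTRL and to 8.47, 23.8 and 57.0 TPM in AAV-VEGF-C, a sum made up mostly of Comp. The low cartilage genes Matn1 and Matn3 stood at 0.84 and 1.12 TPM in AAV-VEGF-C 3 and at no more than 0.109 TPM in the other libraries. The remaining chondrocyte markers did not peak there. In AAV-VEGF-C 3 Sox9 was below all controls at 3.95 TPM. Comp (46.0), Acan (3.06), Cnmd (1.71) and Hapln1 (0.357) lay within the control range in that library. The part of cartilage cells in the Col2a1 value was not tested.

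Col26a1, a collagen of ovary and testis, had 28, 44 and 53 counts in the controls and 8, 21 and 68 with VEGF-C. On the TPM scale it was above all controls in each VEGF-C library, at 3.90, 3.89 and 7.14 TPM against 0.886, 1.14 and 2.14 TPM, and its fold change was 1.96 (SE 0.37, adjusted p = 0.0212, edgeR). Of the low collagens it stood farthest above background in the treated libraries, at 11.8 times, against 59.0 times in AAV-CTRL. It overlaps another gene on the same strand, so part of its counts is uncertain.

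Col22a1, a fibril-associated collagen of the junction between muscle and tendon, had 4, 4 and 5 counts in the controls and 13, 8 and 37 with VEGF-C. Its fold change was 4.82 (SE 0.78, adjusted p = 0.0193, edgeR), but its counts were 1.07 times the background in the controls and 1.23 times with VEGF-C. Col17a1, a transmembrane collagen of epithelial hemidesmosomes, had 5, 6 and 8 counts and 6, 10 and 23 counts, with a fold change of 3.60 (SE 0.60, adjusted p = 0.0193), at 3.41 and 1.81 times the background. Col4a4, a chain of the kidney glomerular basement membrane, had 20, 35 and 62 counts and 8, 11 and 56 counts, with a fold change of 1.79 (SE 0.46, adjusted p = 0.0443), at 8.66 and 1.44 times. For these the treated counts are close to what the background alone would give. The abundant collagens, for comparison, were at least 8.26 times the background in AAV-VEGF-C and at least 267 times in AAV-CTRL.

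Only 3 of the 5 called genes could be tested after the background was subtracted from each gene in each library, a fit in which 0.0724% of all genes were higher. Col2a1 and Col26a1 had fold changes of 4.22 and 2.12 there, no smaller than before, with adjusted p of 0.116 for both, and Col4a4 had 0.39 (adjusted p = 0.918). Col17a1 and Col22a1 had too few counts left to be tested. With every library drawn down to the smallest total, where 0.185% of all genes were higher, none of the 5 had enough counts for the test.

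All 5 calls were lost when AAV-CTRL 2, AAV-CTRL 3, AAV-VEGF-C 2 or AAV-VEGF-C 3 was left out, and without either of those controls no gene at all was called. The fold changes kept their sign in these fits, from 3.09 to 4.37 for Col2a1, 1.69 to 2.08 for Col26a1, 4.01 to 5.14 for Col22a1, 3.22 to 3.72 for Col17a1 and 1.53 to 1.98 for Col4a4. With the replicate number as a block, where 12.8% of all genes were higher and 2.07% lower, 4 of the 5 passed and Col4a4 did not (adjusted p = 0.0614). With no filter on low counts 8 collagens were higher and 7 lower (21.1% and 2.64% of all genes), and DESeq2 called 8 higher (12.7%). limma called 0 higher with a pseudocount of 1 (6.37%), and with 0.1 it called 1 higher, Col22a1 (7.34%), and 1 lower, Col12a1 (0.934%). Restricted to genes of at least 5 TPM, edgeR called none (0.124% higher).

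**Figure D4:**
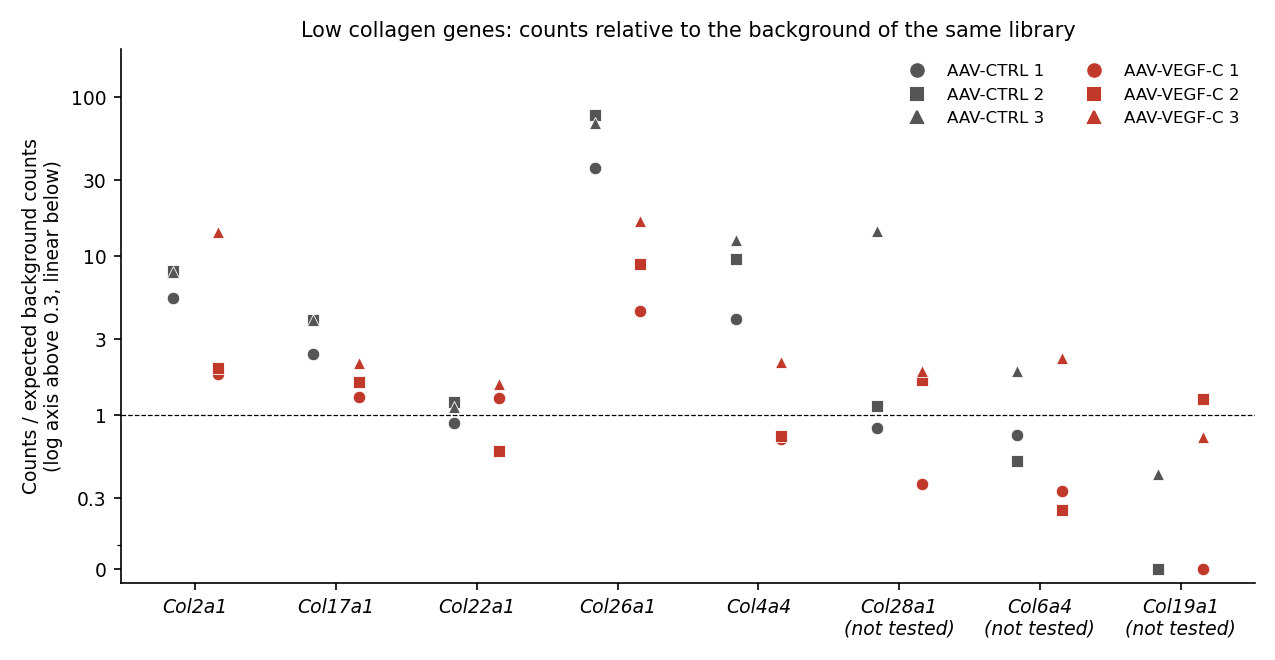
Counts of the 5 collagen genes called higher and of the 3 not tested are divided by the background expected for a gene of that length in the same library (log axis above 0.3, linear below, dashed line at 1), with AAV-CTRL in grey and AAV-VEGF-C in red. Only Col26a1 has all 6 libraries above 3, and Col22a1 lies near 1 in both groups.

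The other 17 tested low collagens had fold changes from -0.40 to 3.00, of which 13 were positive, with adjusted p from 0.0521 to 0.968. Col24a1, a fibrillar collagen of developing bone, was nearest to the threshold, with 4, 2 and 23 counts in the controls and 5, 10 and 15 with VEGF-C at 0.805 times the background there. Over all 25 low members the treated counts were under 3 times the background in 15, and the control counts in 3. Among these members are all of Col9a1 to Col9a3, the cartilage FACIT chains, Col7a1 of the anchoring fibrils of skin, Col10a1 of growth plate cartilage and the transmembrane Col13a1, Col23a1 and Col25a1. They were detected at low counts, and at this depth no difference could be shown for them.

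The 3 collagens left out of the test for low counts were Col19a1, Col28a1 and Col6a4. Col19a1 had 0, 0 and 1 counts in the controls and 0, 9 and 9 with VEGF-C, and a count of 0 allows up to 0.459 and 0.382 CPM in AAV-CTRL 1 and 2 and up to 5.31 in AAV-VEGF-C 1. Col28a1 had 1, 1 and 17 counts and 1, 6 and 12 counts. Col6a4 had 2, 1 and 5 counts and 2, 2 and 32 counts. The treated values of these genes lie between 0 and 3 times the background of their libraries.

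The genes that make, export, bind and degrade collagen were taken from a list of 59, of which 56 were tested. In edgeR, 3 rose and 1 fell, beside 10.5% and 0.659% of all tested genes, and 8 fell with the replicate number as a block, beside 2.07%. A negative fold change was found for 50 of the 56, with a median of -0.69, beside 50.2% of all tested genes. All 44 members of at least 5 TPM were negative, beside 76.0% of such genes, with a median of -0.82, close to the -0.83 of the abundant collagens. The summed TPM of the list was 0.299 of the control mean in AAV-VEGF-C.

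The gene that fell was Itgb1, the shared beta chain of the collagen-binding integrins. It stood at 56.3, 64.7 and 117 TPM in the controls and at 9.81, 18.1 and 23.3 TPM with VEGF-C, with a fold change of -1.10 (SE 0.26, adjusted p = 0.0358, edgeR). No library overlaps. When a library was left out the fold change ran from -1.22 to -1.10 and the adjusted p from 0.0568 to 0.105. It passed in 6 of 17 other settings, among them DESeq2 (adjusted p = 0.00232) and the block (0.0303). The genes that rose were Timp4, an inhibitor of matrix metalloproteinases (3.04, adjusted p = 0.0476), Adamts14, an enzyme that trims procollagen (2.32, adjusted p = 0.0387), and Gp6, the collagen receptor of platelets (5.56, adjusted p = 0.0193). Each was at or below 1.24 TPM in all libraries. After background subtraction Timp4 had 2.73 (adjusted p = 0.247) and Adamts14 1.71 (adjusted p = 0.500), and Gp6 could not be tested.

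The most abundant member of each step showed the same order of the groups. P4hb, a subunit of the prolyl hydroxylase, stood at 159, 157 and 152 TPM in the controls and at 25.9, 64.4 and 73.7 TPM with VEGF-C, with a fold change of -0.82 (adjusted p = 0.110, edgeR). Colgalt1, which adds galactose to hydroxylysine, had a fold change of -0.55 (adjusted p = 0.286). Serpinh1, the collagen chaperone of the endoplasmic reticulum, stood at 174, 107 and 226 TPM and at 19.0, 28.4 and 65.6 TPM, with a fold change of -1.14 (adjusted p = 0.0961). Outside the cell, Pcolce, which speeds the cleavage of procollagen, and Loxl1, a cross-linking oxidase, had -0.86 and -0.96 (adjusted p = 0.178 and 0.188). Mrc2, the receptor that takes up collagen for degradation, had -0.89 (adjusted p = 0.222), Timp2, which restrains the metalloproteinases, had -0.60 (adjusted p = 0.262), and Nid1, which ties laminin to type IV collagen, had -0.86 (adjusted p = 0.153). All 8 were below all controls in each VEGF-C library in TPM, beside 61.4% of all genes of at least 5 TPM, and none passed the test.

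**Figure D5:**
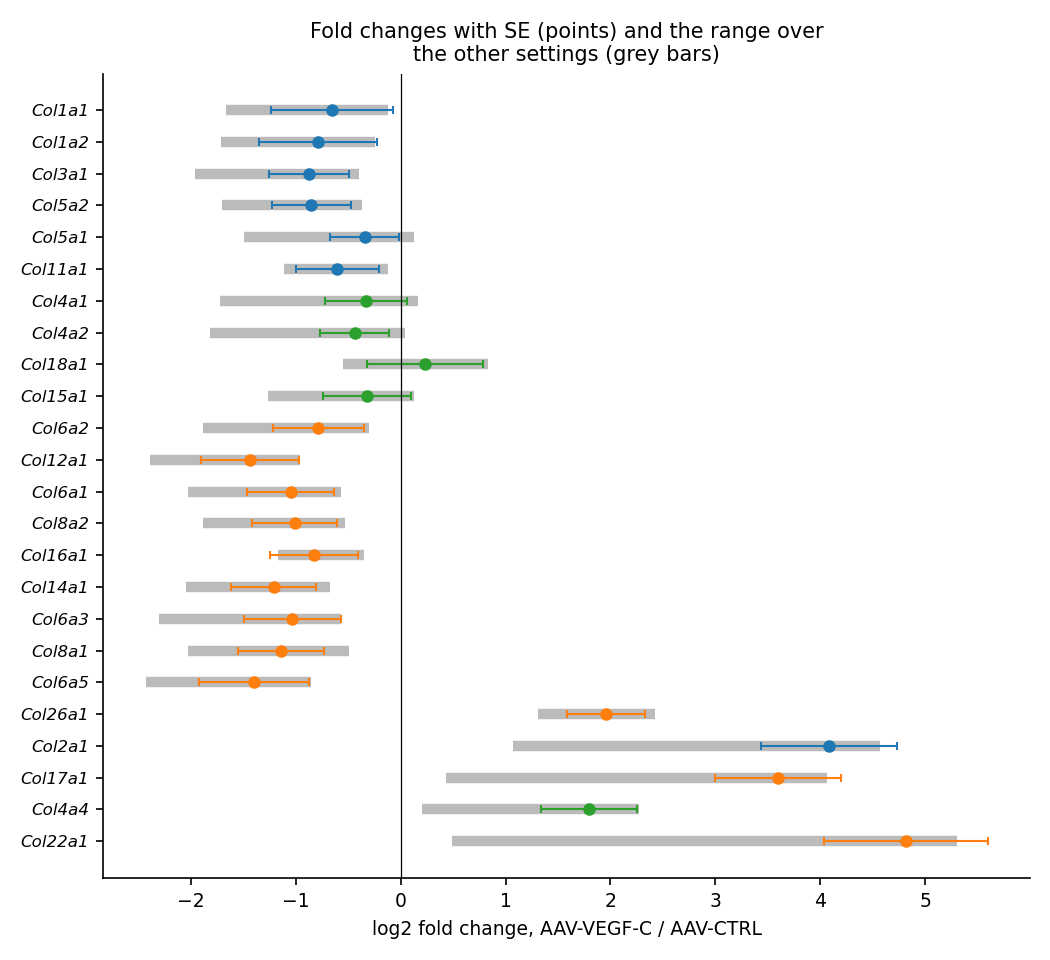
Points give the log2 fold change (AAV-VEGF-C / AAV-CTRL, edgeR) with its SE for the 19 collagen genes of at least 5 TPM and the 5 called higher, in blue for fibrillar, green for basement membrane and orange for other collagens. Grey bars span the values under up to 17 other settings, and 14 of the 19 abundant genes stay below 0 throughout.

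The genes themselves are long and in many pieces. The 44 collagen genes lie on 15 chromosomes, and their annotated exons (GENCODE M21, GRCm38) merge into a median of 48 blocks (range 3 to 116), against 7 for protein-coding genes. Of the 44, some counted on both strands, 15 overlap another annotated gene on the same strand, 18 overlap one on the other strand and 16 overlap none. Whether strand was used in counting is not given in the sources used here, so counts of the overlapping genes are uncertain. Col1a1, Col6a1, Col6a2, Col8a1 and Col8a2 overlap none, and Col12a1 and Col3a1 each overlap 1.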

How the data were processed

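Bulk RNA sequencing of 6 libraries of sorted dural LECs, 3 per group, was analysed, with groups taken from the labels. Libraries were made from total RNA with a stranded low-input kit. The deposited values are estimated counts of each gene with no scaling, and TPM, in which the authors corrected for gene length and library total. The submitters' processing notes name FastQC, Trimmomatic, DRAGEN, Picard and mm10. The counting program, its use of strand and of molecular identifiers are not given in the sources used here. GENCODE M21 (GRCm38) matched 98.1% of the identifiers with their version and gave the positions. Promoter sequences and their gene starts came from RefSeq.

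Estimated counts were rounded, kept by filterByExpr and scaled by TMM, and the groups were compared by edgeR's quasi-likelihood test (version 4.0.16, R 4.3.3) with Benjamini-Hochberg adjustment over all 17459 tested genes at 0.05. The study used DESeq2, run here as an alternative (version 1.42.0). Other alternatives were scaling, filters, limma (version 3.58.1) on log2 TPM with pseudocounts of 1 and 0.1, the replicate block, 1 random draw-down of counts, background subtraction and leaving out each library. The edgeR step was tested on simulated data in which only genes with enough expected counts in the shallowest library were changed. That test says little about genes with few counts, such as the collagens called higher. Chain ratios were compared by exact permutation (SciPy 1.17.1). Every collagen was accounted for, and values per library are given for those with an adjusted p under 0.05 or a mean of at least 5 TPM, besides those left untested and the one nearest the threshold. From the list of pathway genes, those with an adjusted p under 0.05 and the most abundant of each role were named. The members, the lists and this rule were chosen with earlier results of these data known.

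Replicate numbers mark repeats of the experiment. Deviations from the group means correlated across genes at 0.37, 0.28 and 0.15 between same-numbered libraries. Between libraries of different number they ran from -0.40 to 0.22. AAV-CTRL 3 with AAV-VEGF-C 2, at 0.22, was above the lowest same-numbered value. The numbers were taken to pair the libraries, on this partial evidence, in the block alternative and in the ratios within numbers, and the main fit had no block. Libraries of the same group differed by more than sampling noise (lowest chi-square over its degrees of freedom, 8.78). Totals from 564475 to 12399498 counts set the precision, which is lowest for low genes in AAV-VEGF-C, and intervals and floors of 3 counts cover counting error only.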

Additional observations from a re-analysis of the deposited data

How the results depend on the processing

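The counts of collagens passing edgeR's test (5 higher, 0 lower) depended on the processing. Without a filter on low counts 8 were higher and 7 lower, and with DESeq2 8 and 4. Both included Col12a1, Col6a5, Col6a1 and Col14a1 among the lower. limma called 0 higher and 1 lower (Col12a1) with a pseudocount of 1, and 1 and 1 with 0.1. With the replicate block 4 were higher and 1, Col12a1, lower. A filter of at least 5 TPM, the draw-down and the background subtraction each gave 0 and 0, with 0, 0 and 4 collagens at an unadjusted p under 0.05, but tested 0, 0 and 3 of the 5 called. Leaving out a library gave 0 to 6 higher and 0 lower. Without AAV-CTRL 2, AAV-CTRL 3, AAV-VEGF-C 2 or AAV-VEGF-C 3 no collagen was called in either direction, and 18, 15, 12 and 15 had an unadjusted p under 0.05. Over all tested genes those fits called 0, 0, 8 and 328.

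Pathway genes passing (3 higher, 1 lower) were 5 and 18 without a filter, 4 and 8 with DESeq2, 0 and 6 with limma at a pseudocount of 1, 1 and 3 at 0.1, and 3 and 8 with the replicate block. They were 3 and 0 with library size alone or scaling on the 2000 most abundant genes, 0 and 0 with at least 5 TPM, drawn down or background subtracted, and 0 to 4 higher and 0 lower when a library was left out.

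Some abundant collagens changed sign, to values within 0.6 of 0 (log2). Scaling on the 2000 most abundant genes, which moves the median of all genes to 0.45, gave 0.16 for Col4a1, 0.046 for Col4a2, 0.13 for Col5a1 and 0.13 for Col15a1. The filter at 5 TPM gave 0.12, 0.056 and 0.061 for Col4a1, Col5a1 and Col15a1, the draw-down 0.095 and 0.042 for Col4a1 and Col15a1, and the subtraction 0.067 for Col4a1. Col15a1 ran from -0.69 to 0.017 when a library was left out, positive only without AAV-CTRL 3. Col18a1 was at -0.086 without a filter, at -0.27 and -0.29 with limma, and from -0.55 to 0.68 when a library was left out. When a library was left out, the Col1a1 to Col1a2 difference ran from -0.030 (without AAV-VEGF-C 2) to 0.16 and the Col4a1 to Col4a2 difference from -0.034 (without AAV-CTRL 2) to 0.24. The cause was not tested. Of the 17 low collagens not called, 11 changed sign under some setting, reaching -1.49 (Col9a3) and 0.92 (Col13a1). The other 14 abundant collagens stayed negative under all 17 settings. The block changed no other collagen's call.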
